A study of Mus musculus with 32 samples.

Results

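The comparison was between the stroma dissected around an implanted sarcoma and the sarcoma itself in mice with both working copies of EP2 (labelled EP2+/+), 8 stroma arrays against 8 tumor arrays, which were 16 of the 32 arrays of the series. MCG 101 is a transplantable mouse sarcoma line that was first induced with methylcholanthrene. Its cells were implanted in EP2 wild-type and EP2 knockout mice, and the same line grew in every host. EP2, encoded by Ptger2, is a receptor for prostaglandin E2. Each tissue held 4 arrays labelled female (1, 5, 45 and 68) and 4 labelled male (4, 9, 65 and 82), and arrays were chosen and paired by those title numbers alone, with no measured value. The labels give no strain, age or time after implantation. They do not say that a number is 1 animal or that arrays come from separate animals, so the p-values below measure the spread between these samples, which may be partly technical. The 16 arrays from knockout hosts entered the comparison between genotypes, the choice of each gene's brightest probe and 1 alternative fit.

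A solid tumor is a mixture of malignant cells and host tissue. The stroma supplies vessels, fibroblasts, matrix and immune cells, and a sarcoma in soft tissue can border on skeletal muscle, fat and peripheral nerve. Prostaglandin E2, made by the cyclooxygenases Ptgs1 and Ptgs2 and by prostaglandin E synthases, signals through the 4 receptors Ptger1 to Ptger4 on tumor, vessel and immune cells.

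Gene levels are given as log2 of an array's processed signal divided by that array's 75th percentile over all non-control probes, so 0 is the signal of a probe at that percentile. A level of 1 probe was never set against that of another. Differences are stroma minus tumor on the same log2 scale, over 8 pairs, with the standard error (SE) of a limma fit that held the title number as a block. A gene was called, and is said to have risen or fallen in stroma, where the limma p-value adjusted by the method of Benjamini and Hochberg over all 23792 genes tested was under 0.05. In bulk tissue fewer cells of a type and less RNA per cell cannot be told apart, which holds for every difference below.

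Arrays of 1 label were not alike. Between 49.99% and 76.3% of spots stood well above background, the lowest on stroma 82 and the highest on tumor 5, which also had 483 outlier spots. The first principal component of the 16 arrays held 51.9% of the variance. Tumor arrays lay between -115 and -18.3 on it and 6 stroma arrays between 49.9 and 256, while stroma 65 at -28.6 and stroma 82 at -72.1 lay among the tumor arrays. Stroma 65 had a median correlation of 0.954 with the tumor arrays and 0.937 with the other stroma arrays, and stroma 82 had 0.972 and 0.907. Stroma 9 lay at the far end, at 256. Stroma 9 was labelled male, but its Xist, the RNA of the inactive X chromosome, was well above background at -2.24. That was slightly above the range of the 4 stroma arrays labelled female (-3.55 to -2.30). Its Ddx3y, a Y-linked gene, was not above background. On tumor 9, also labelled male, Xist was at -5.97 and Ddx3y at -3.98, neither well above background, while Ddx3y ran from -7.33 to -6.36 on the tumor arrays labelled female. The arrays of pair 9 thus differed in their sex-linked levels. Several results below are given also without pairs 9, 65 and 82.

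**Figure D1:**
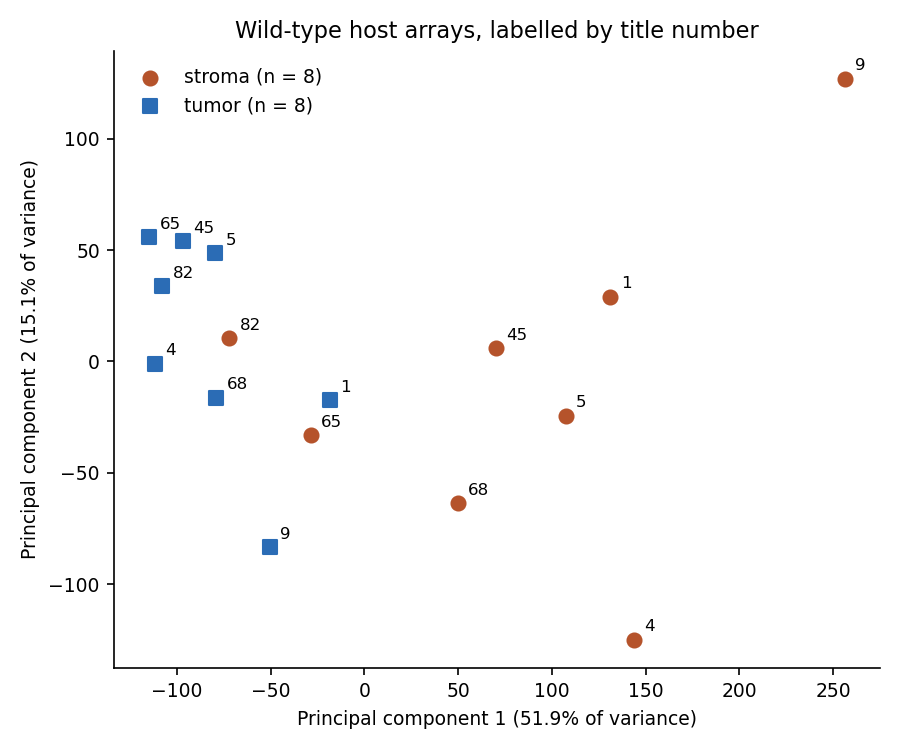
First and second principal components of the 16 wild-type arrays (scores, with the percent of variance on each axis), with stroma and tumor arrays in separate colours and each point labelled with its title number. Stroma 65 and stroma 82 lie among the tumor arrays, and stroma 9 lies farthest from them.

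Stroma and tumor differed widely. Of 23792 genes tested, 4149 were called (17.4%), 1860 higher in stroma (7.82%) and 2289 lower (9.62%). At an adjusted p under 0.05 and a change of at least 2-fold there were 1757 higher and 993 lower, so large changes were mostly rises. The median difference over all genes was -0.23. Stroma and tumor arrays did not overlap at all for 31 genes higher in stroma (0.130%) and 157 lower (0.660%). The count rested on each of several pairs: it was 1817 without pair 1, 1714 without pair 5, 1482 without pair 45, 2015 without pair 68 and 1849 without pair 4. It was 4369 without pair 9, 2965 without pair 65 and 5222 without pair 82. Without pairs 65 and 82 it was 5697, and without pairs 9, 65 and 82 it was 6566, with 3474 of the 4149 called among them in the same direction. With slide as a block in place of the title number it was 6936. Slides 1 and 6 held 2 wild-type stroma arrays each and 0 tumor arrays, so those stroma arrays do not enter that difference. Each slide with both tissues held 1 stroma array, on which every value by slide below rests. The side that held more calls also moved with the scaling and with the filter on dim probes: 44.8% of calls were higher in stroma, against 56.6% after quantile scaling, 59.7% with the 75th percentile taken over bright probes, 72.9% with no filter on dim probes and 30.6% with genes well above background on all 16 arrays.

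**Figure D2:**
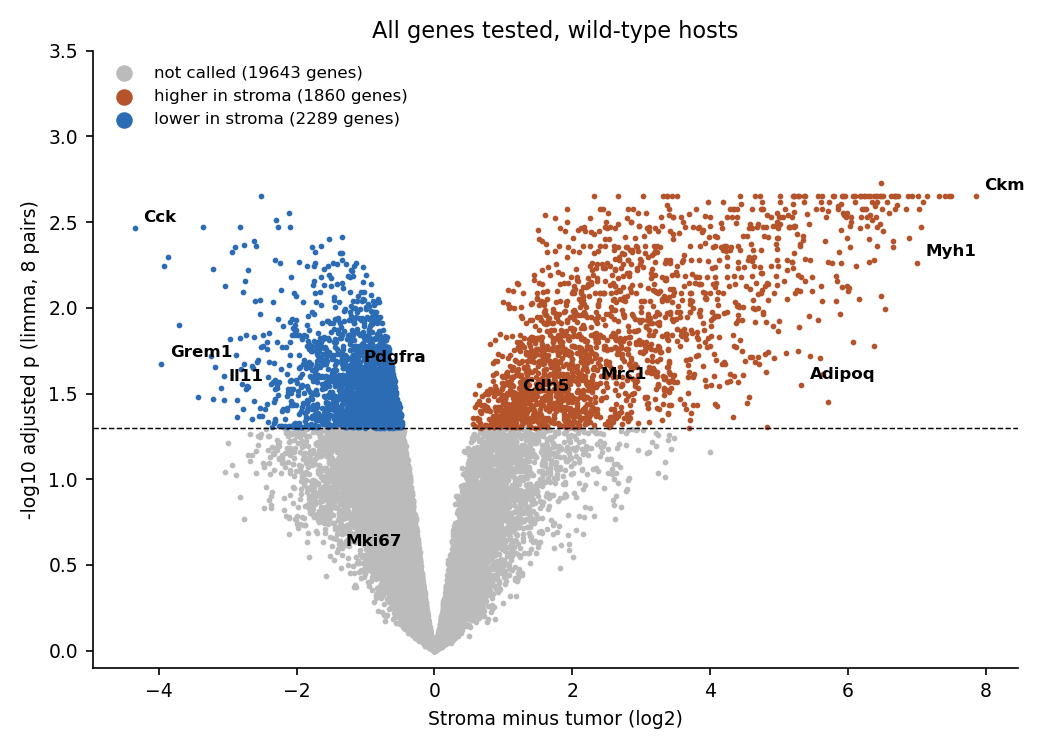
Each point is 1 of the 23792 genes tested, with the stroma minus tumor difference (log2, mean of 8 pairs) on the horizontal axis and -log10 of limma's adjusted p on the vertical axis; the dashed line is the threshold of 0.05. The right arm, with Ckm, Myh1 and Adipoq, reaches past 6, while the left arm, with Cck, Grem1 and Il11, ends at -4.35, and Mki67 lies below the line.

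The genes were read in 39 lists for cell types and programmes. Each count of called members is to be read beside the shares over all genes tested, 7.82% higher and 9.62% lower. A count near these shares is not particular to its list. The lists differed in how evenly the 8 pairs supported them. The mean difference of the skeletal muscle, adipocyte, blood endothelium, mural cell, fibroblast, mast cell and complement lists was above 0 in 8 of 8 pairs. Those of the ribosomal protein, Hox and hypoxia lists were below 0 in 8 of 8 pairs. The cell cycle list was below 0 in 6 of 8 pairs, and the collagen, cytokine and prostaglandin lists held pairs on both sides.

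**Figure D3:**
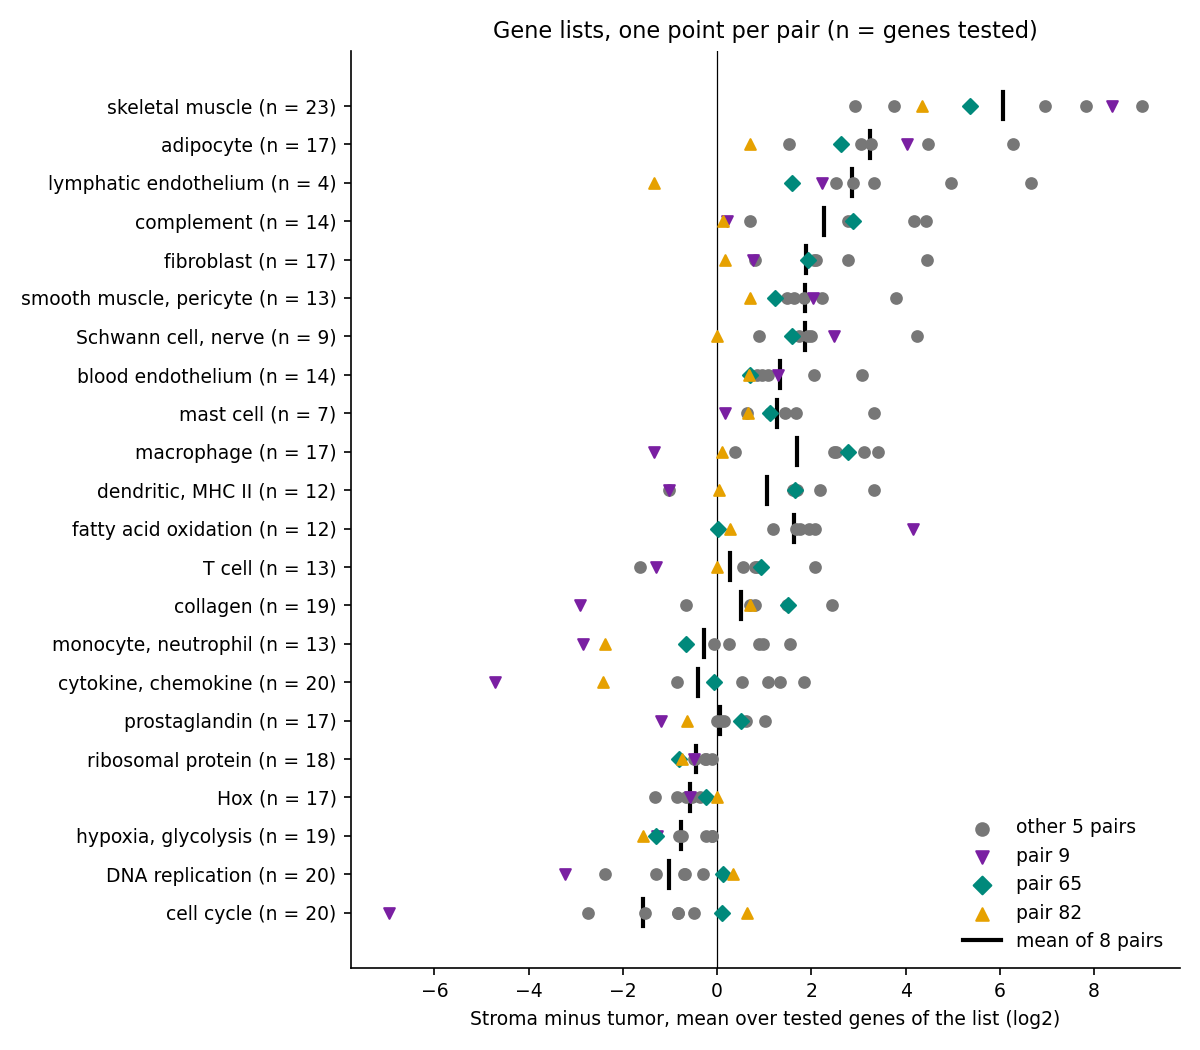
Mean stroma minus tumor difference (log2) over the tested genes of each list, with 1 point per pair, pairs 9, 65 and 82 marked by shape and colour, and the black bar at the mean of 8 pairs. Skeletal muscle lies between 2.93 and 9.02 in every pair, whereas the cell cycle list runs from -6.97 in pair 9 to 0.63 in pair 82.

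**Figure D4:**
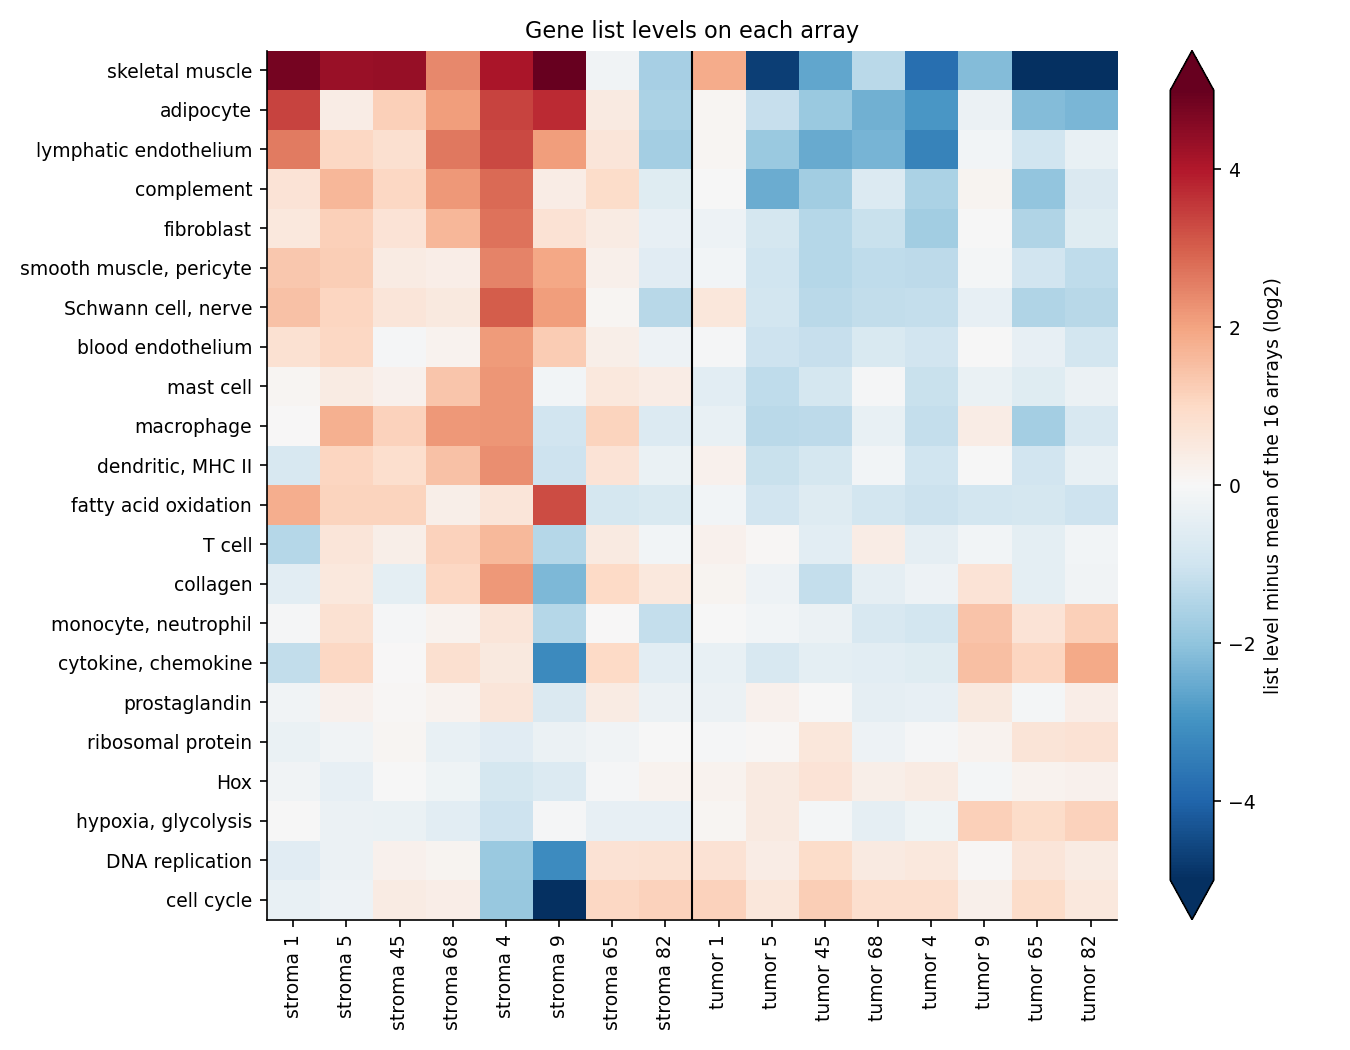
Level of each of 22 lists on each of the 16 arrays (log2, minus the mean over the 16 arrays; red higher, blue lower, colours end at -5 and 5). In the skeletal muscle row tumor 1 is redder than stroma 65 and stroma 82, and the cell cycle row has its deepest blue in stroma 9.

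Skeletal muscle genes rose most. All 23 of 23 members of the skeletal muscle list rose in stroma, with a median difference of 6.03 and differences from 3.15 to 7.86, beside 7.82% of all genes called higher. Ckm, the creatine kinase of muscle that buffers ATP, ran from -0.17 through a median of 6.04 to 9.20 in stroma and from -6.08 through -3.27 to 3.67 in tumor. The stroma arrays were higher than their paired tumor array in 8 of 8 pairs, although the ranges overlapped. The difference was 7.86 ± 0.87 (SE, n = 8 pairs; limma adjusted p = 0.00224). Acta1, skeletal actin of the thin filament, was at 3.29, 8.52 and 9.79 (lowest, median and highest) in stroma and at -2.14, 0.86 and 6.48 in tumor, a difference of 6.42 ± 0.724 (limma adjusted p = 0.00242). Pvalb, the calcium buffer of fast fibres, differed by 7.02 ± 0.719 and Myh1, a fast myosin heavy chain, by 7.00 ± 1.08. The giant sarcomere proteins Ttn and Neb differed by 6.70 and 6.52, and Des, the muscle intermediate filament, by 5.38. The 15 largest rises were taken among called genes with a symbol, above background throughout the brighter tissue and moving 1 way in at least 7 pairs. Of these, Ckm, Myot, Trdn, Cmya5, Actn2, Pvalb, Myh1, Mypn and Cacna1s encode proteins of the sarcomere, its energy supply or its calcium release. Car3, a carbonic anhydrase abundant in muscle and fat, differed by 7.50 ± 0.758, and Cox8b, a muscle form of a cytochrome c oxidase subunit, by 7.15. The others were Asb2, Tceal5, Trim63 and Bex1, and each of the 15 was called in all 8 fits that left out 1 pair.

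Muscle RNA was unevenly spread over both tissues. The mean level of the list over its 23 genes was 7.42, 6.96, 6.99, 5.05, 6.71, 8.87, 2.47 and 0.98 on stroma 1, 5, 45, 68, 4, 9, 65 and 82. On the tumors of the same numbers it was 4.49, -2.06, 0.04, 1.29, -1.12, 0.48, -2.90 and -3.38. Tumor 1 was thus above stroma 65 and stroma 82. Without pairs 65 and 82 all 23 were called, with a median of 6.60, and without pairs 9, 65 and 82 it was 22 of 23 with a median of 6.10. In each fit that left out 1 pair at least 22 were called. The list difference was 5.23 within scan day 1 and 6.74 within scan day 2, and from 2.43 to 10.37 within the 4 slides that held both tissues.

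Muscle list members share short sequences in their promoters. The 250 bases before the start site are shown for the 3 members with the largest called difference and a promoter in the RefSeq table (build GRCm38.p6), 5′ to 3′ on the gene's strand, with matches to CAGCTG (an E-box bound by myogenic factors), TATAAA or the CArG box in capitals. Ckm lies at chr7:19410844-19411093 on the plus strand, Pvalb at chr15:78206401-78206650 on the minus strand and Myh1 at chr11:67199852-67200101 on the plus strand.
Ckm: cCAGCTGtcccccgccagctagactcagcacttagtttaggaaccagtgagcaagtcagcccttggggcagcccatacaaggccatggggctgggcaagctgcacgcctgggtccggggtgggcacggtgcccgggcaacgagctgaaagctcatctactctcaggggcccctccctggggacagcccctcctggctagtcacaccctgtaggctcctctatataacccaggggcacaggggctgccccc
Pvalb: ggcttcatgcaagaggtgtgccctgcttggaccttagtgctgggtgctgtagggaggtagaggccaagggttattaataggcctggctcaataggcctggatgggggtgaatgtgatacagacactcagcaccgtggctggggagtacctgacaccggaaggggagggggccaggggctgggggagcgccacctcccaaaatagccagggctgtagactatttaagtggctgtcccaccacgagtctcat
Myh1: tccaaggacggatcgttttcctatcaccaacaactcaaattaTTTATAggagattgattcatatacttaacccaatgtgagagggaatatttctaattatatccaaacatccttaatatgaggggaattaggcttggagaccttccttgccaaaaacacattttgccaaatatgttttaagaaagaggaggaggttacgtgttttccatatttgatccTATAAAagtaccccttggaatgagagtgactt
The Ckm match begins at position -249 from the start site, and those of Myh1 at -208 and -32. Pvalb holds none of these letters in this window. Over windows of 250 bases before to 50 after the start, searched on both strands, 10 of 17 muscle members with a promoter held CAGCTG (58.8%), against 16.1% of all 27025 promoters. TATAAA was in 5 of 17 (29.4%, against 14.2%) and the CArG box in 2 of 17 (11.8%, against 1.57%); a CArG box can overlap TATAAA or CCAAT. Of the cell cycle list described below, 2 of 15 promoters held CAGCTG (13.3%) and 0 held TATAAA or the CArG box. These are counts of letters.

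Genes of muscle breakdown and regeneration were also higher in stroma, with 8 of 12 tested members called and a median of 3.26. Trim63 and Fbxo32 encode the ubiquitin ligases MuRF1 and atrogin-1, which mark muscle proteins for degradation. Trim63 was at -0.01, 5.90 and 8.95 (lowest, median, highest) in stroma and at -5.69, -1.99 and 4.06 in tumor, a difference of 6.87 ± 0.634 (limma adjusted p = 0.00224). Fbxo32 differed by 5.05 ± 0.638 (limma adjusted p = 0.00294). Foxo1, a transcription factor that drives both ligases, rose by 1.66, while Foxo3 differed by 0.01. The myogenic factors Myog, Myf6 and Myod1 rose by 4.97, 6.16 and 3.69. The perinatal myosin Myh8 rose by 6.18 on its brightest probe. Its other probe differed by -0.62 and was well above background on 1 array, and which probe reads Myh8 was not tested. Embryonic myosin Myh3 differed by 2.58 (limma adjusted p = 0.0936). The satellite cell gene Pax7 was not tested, being well above background on 5 stroma arrays and 1 tumor array. These genes are expressed in muscle fibres, whose markers moved by a median of 6.03, and the part of muscle content in them was not tested. At least 7 of the 8 called genes were called whichever pair was left out.

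**Figure D5:**
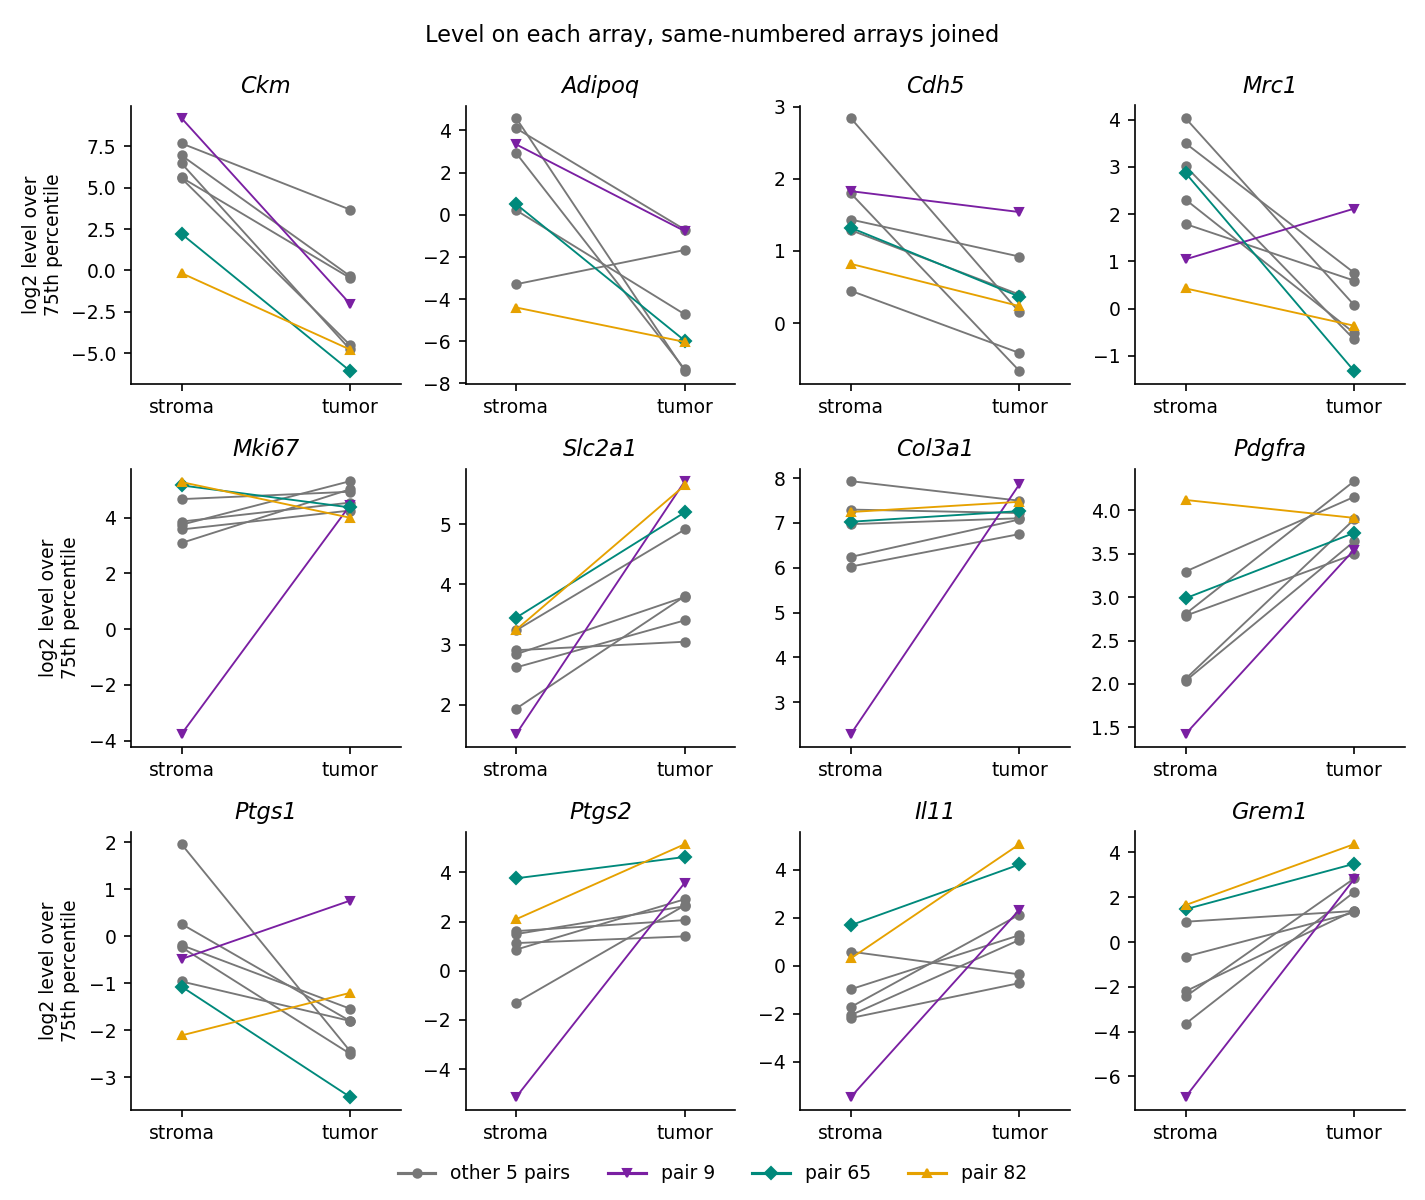
Level of 12 genes (log2 relative to the array's 75th percentile) on each array, with a line joining stroma and tumor of 1 title number; pairs 9, 65 and 82 are coloured. Ckm falls from stroma to tumor along every line, Slc2a1 goes up along every line, and Mki67 has its widest step in pair 9, from -3.77 in stroma.

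Fat cell genes rose in stroma, 14 of 17 tested members, with a median of 2.79. Adipoq, the hormone adiponectin, was at -4.40, 1.71 and 4.58 (lowest, median, highest) in stroma and at -7.42, -5.35 and -0.71 in tumor. It was higher in stroma in 7 of 8 pairs, by 5.33 ± 1.33 (limma adjusted p = 0.0283), and its adjusted p was 0.0653 without pair 45. Plin4, a lipid droplet coat protein, differed by 6.18 ± 0.836, Cfd, the adipokine adipsin, by 6.37 ± 1.33, and Cidec, which fuses lipid droplets, by 5.60 ± 1.23. Pparg, the transcription factor of fat cell differentiation, rose by 2.27 ± 0.426 (limma adjusted p = 0.0114); all 4 stayed called whichever pair was left out. Lep, the fat hormone leptin, differed by -0.07 and was not called. Without pairs 65 and 82 there were 14 called, with a median of 3.52, and without pair 1, 45 or 4 there were 8. The list lay 3.96 higher within scan day 1, 2.83 within scan day 2 and from 2.33 to 4.93 within slides.

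Several genes of fatty acid use rose as well. Of 12 tested, 6 rose, with a median of 1.02. Ppargc1a, a coactivator of mitochondrial genes, differed by 4.51, Cpt1b, the muscle form of the enzyme that admits fatty acids to mitochondria, by 3.67, and the fatty acid carrier Cd36 by 3.30. Ppargc1a was well above background on 8 arrays, stroma and tumor counted together, so the size of its difference is not well measured. Only 2 of the 6 stayed called without pair 45, 68 or 4. None of 17 respiratory chain genes was called by limma (2 higher and 0 lower at an unadjusted p under 0.05), with a median of 0.38.

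Nerve and vessel genes were higher in stroma. Of 9 tested Schwann cell and nerve genes, 4 rose and 0 fell, with a median of 1.58, and the list mean was higher in stroma in 8 of 8 pairs. Pmp22, a protein of compact myelin, was at 0.32, 3.30 and 5.22 (lowest, median, highest) in stroma and at -0.94, 0.09 and 2.92 in tumor, and rose by 2.57 ± 0.592 (limma adjusted p = 0.0225, and 0.0571 without pair 45). S100b, a calcium-binding protein of glia that fat cells also make, rose by 2.86 ± 0.63 (limma adjusted p = 0.0196, and 0.0518 without pair 45). Of the 4 called, 2 stayed called without pair 45. Blood endothelial genes rose by less but evenly: 11 of 14 rose, all 14 were higher, and the median was 1.18. Cdh5, the cadherin of endothelial junctions, was at 0.45, 1.38 and 2.84 in stroma and at -0.67, 0.30 and 1.54 in tumor, a difference of 1.16 ± 0.304 in 8 of 8 pairs (limma adjusted p = 0.0331, and 0.0743 without pair 5). Pecam1 rose by 1.18 ± 0.261 and Tie1, an endothelial receptor kinase, by 1.53 ± 0.287. Flt1, a receptor for vascular endothelial growth factor, rose by 1.12 ± 0.224, and these last 3 were called in all 8 fits that left out 1 pair. Of the 11 called, 4 remained without pair 45, and 8 of 14 rose after quantile scaling. The list was 1.86 higher within scan day 1, 0.93 within day 2 and from 1.28 to 1.91 within slides.

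Lymphatic vessel genes differed by more, on fewer genes. Of 4 tested, Ccl21a, a chemokine that draws dendritic cells to lymphatics, differed by 4.61 ± 1.01, Lyve1, a hyaluronan receptor, by 4.35 ± 1.04, and Mmrn1 by 3.62, all 3 called. Pdpn, which fibroblasts and tumor cells also make, differed by -1.15 and was not called. None of the 3 stayed called without pair 45. Lyve1 is also made by tissue macrophages. Of the mural cell list, 6 of 13 tested rose, with a median of 1.65. Abcc9 and Rgs5, pericyte genes, rose by 2.87 ± 0.425 and 2.18 ± 0.405. Acta2, smooth muscle actin, was at 3.73, 6.08 and 8.73 (lowest, median, highest) in stroma and at 1.84, 3.37 and 3.96 in tumor, a difference of 2.95 ± 0.675 (limma adjusted p = 0.0221, and 0.0585 without pair 45). Des is a member of this list and of the muscle list.

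Fibroblast genes split. Of 17 tested, 7 rose and 1 fell, with a median of 1.73. Dpt, a matrix protein of quiescent fibroblasts, was at -1.56, 0.69 and 2.73 (lowest, median, highest) in stroma and at -5.58, -3.28 and -1.31 in tumor, and rose by 3.89 ± 0.666 (limma adjusted p = 0.00807). Dpep1 rose by 4.01, C3 by 3.40, Clec3b and Fbln1 both by 3.34 and Cd34 by 1.73. Pdgfra, the platelet-derived growth factor receptor of fibroblasts and of many sarcomas, was the 1 member that fell: it was at 1.42, 2.80 and 4.12 in stroma and at 3.49, 3.82 and 4.33 in tumor. Its difference was -1.15 ± 0.265 (limma adjusted p = 0.0224, and 0.0637 without pair 45). Dcn and Lum, proteoglycans that bind collagen, differed by -0.14 and 0.65, and neither was called. Fap differed by -0.02. Of the 8 called, 4 remained without pair 45, and without pairs 9, 65 and 82 it was 6 higher and 1 lower.

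Collagens held rises and falls. Of 19 tested, 4 rose and 1 fell, with a median of 0.34, beside 17.4% of all genes called. The calls moved with the pairs: none of the 5 stayed called without pair 45 or 68, and 7 rose and 1 fell without pair 9. Col4a1 and Col4a2, the network collagens of basement membrane, rose by 1.33 and 1.25, and the fibril-associated Col14a1 and the minor fibrillar Col11a1 by 3.45 and 2.64. Col18a1, the source of endostatin, fell by 1.51 on the log2 scale. Col1a1, the main fibrillar collagen, was at 1.14, 5.39 and 7.96 (lowest, median, highest) in stroma and at 0.10, 2.20 and 6.69 in tumor, and differed by 2.15 ± 1.21 (limma adjusted p = 0.209). Col3a1 differed by -0.90 ± 0.598 (limma adjusted p = 0.28), with stroma 9 at 2.29 and every other array between 6.03 and 7.93. The list lay 1.82 higher in stroma within scan day 1 and was at -0.66 within day 2, and with slide as a block it gave 3 rises and 4 falls.

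Basement membrane and matrix enzymes changed singly. Lama2, the laminin chain that surrounds muscle fibres and Schwann cells, was at -1.12, 1.07 and 3.27 (lowest, median, highest) in stroma and at -3.46, -2.59 and -0.71 in tumor, and rose by 3.47 ± 0.441 (limma adjusted p = 0.00294). Lama4, of vessels, rose by 1.69 and Nid2 by 1.31, making 3 of 10, of which 1 stayed called without pair 5 or 68. Of 20 matrix enzymes and inhibitors, 3 rose and 1 fell, beside 17.4% of all genes called. The metalloproteinase inhibitors Timp4 and Timp3 rose by 5.44 and 2.77, and stromelysin Mmp3 rose by 3.71 (limma adjusted p = 0.045, and 0.104 without pair 4). Timp4 was well above background on 9 arrays, stroma and tumor counted together, so the size of its difference is not well measured. Mmp11 fell by 1.75 on the log2 scale (limma adjusted p = 0.0057) and was lower in stroma in 8 of 8 pairs. Mmp13, a collagenase, differed by 2.17 (limma adjusted p = 0.166). Keratinocyte keratin Krt14 was well above background on 1 array of each tissue and was not tested.

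Macrophage genes were mostly higher in stroma. Of 17 tested, 7 rose and 0 fell, with a median of 1.53. Cd163, the haemoglobin scavenger receptor, was at -3.45, 1.24 and 2.83 (lowest, median, highest) in stroma and at -6.06, -4.33 and -0.06 in tumor, and rose by 4.57 ± 0.775 (limma adjusted p = 0.00781). Mrc1, the mannose receptor, was at 0.43, 2.59 and 4.03 in stroma and at -1.32, -0.14 and 2.12 in tumor, a difference of 2.29 ± 0.569 (limma adjusted p = 0.0282, and 0.0707 without pair 45). Folr2, Lyz2, C1qa and C1qb rose by 2.11, 1.52, 1.68 and 1.43. The general macrophage genes Adgre1, Csf1r and Cd68 differed by 1.53, 0.92 and -0.26, and none was called. Stroma 9 had the lowest stroma level of the list. Without pair 9 there were 13 called, and without pairs 9, 65 and 82 there were 12, while without pair 45 or 4 only Cd163 of the 7 stayed called and with slide as a block 4 were called. The list was 2.77 higher within scan day 1 and 0.65 within day 2.

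Complement and mast cell genes rose too. Of 14 complement genes, all 14 were higher and 10 rose, with a median of 2.02. Cd55, which shields cells from complement, was at -2.60, 2.31 and 3.78 (lowest, median, highest) in stroma and at -6.46, -3.88 and -0.15 in tumor, and rose by 5.22 ± 0.697 (limma adjusted p = 0.00339) on its brightest probe, and its other 2 probes differed by 3.40 and 3.22. C4b and C3, central components of the cascade, rose by 3.95 ± 0.83 and 3.40 ± 0.593. Serping1, the inhibitor of the first component, rose by 3.68 ± 0.835 (limma adjusted p = 0.0215, and 0.0545 without pair 45). Of the 10, 4 stayed called without pair 45 or 4, 7 of 14 rose after quantile scaling and 12 of 14 without pairs 9, 65 and 82. Of 7 mast cell genes 4 rose, and the 4 were called in all 8 fits that left out 1 pair. Mcpt4, a connective tissue mast cell chymase, was at 1.93, 2.18 and 4.87 in stroma and at -0.58, 0.24 and 1.33 in tumor. These ranges did not overlap, and the difference was 2.23 ± 0.371 (limma adjusted p = 0.0073). Cma1, Cpa3, the mast cell carboxypeptidase, and Fcer1a, a chain of the IgE receptor, rose by 2.01, 1.83 and 1.60.

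Other immune lists held few calls with all 8 pairs. Of 13 T cell genes 0 were called by limma (1 higher at an unadjusted p under 0.05), with a median of 0.25. Cd3e, a chain of the T cell receptor complex, differed by -0.07, a value that turned sign in several settings. Of 13 monocyte and neutrophil genes 1 fell (Elane, by 0.65 on the log2 scale). Elane was called in 1 of 8 fits that left out 1 pair (highest adjusted p 0.105, without pair 45) and lost the call without the block. Without pairs 9, 65 and 82, the same list held 3 rises and 0 falls, with a median of 0.61. With all 8 pairs, S100a8 differed by -1.25 (limma adjusted p = 0.29). Of 12 genes of dendritic cells and MHC class II, H2-Aa rose by 2.06 and Cd209a by 3.83, and neither stayed called without pair 45. Of 11 cytotoxic genes Prf1, the pore protein perforin, fell: it was at -3.24, -2.20 and -1.74 (lowest, median, highest) in stroma and at -2.17, -1.13 and 0.36 in tumor, a difference of -1.31 ± 0.239 (limma adjusted p = 0.0104), called in all 8 fits that left out 1 pair. With slide as a block, which leaves out the stroma arrays of 2 of 6 slides, 5 of the 11 fell. The list median was then -1.31 in place of 0.15. Of 12 B cell and plasma cell genes 6 could be tested, 4 higher and 2 lower, and 2 rose. The 2 were the plasma cell genes Mzb1 and Jchain, by 2.17 and 2.10, Mzb1 in all 8 fits that left out 1 pair. In pair 1 Jchain differed by -2.76. Of 15 interferon-response genes, Ifih1, a sensor of double-stranded RNA, rose by 0.98, but not without pair 1, 5, 45, 68 or 4. Without pairs 9, 65 and 82, 5 of the 15 rose, and the median was 1.55 in place of 0.69. Of 12 genes of immune suppression, Nt5e, the enzyme that makes adenosine, and Nos2 fell by 2.14 and 1.76 on the log2 scale and Vsir rose by 1.34. None of these 3 stayed called without pair 45 or 4. Arg1 differed by -1.57 (limma adjusted p = 0.365).

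Proliferation genes were lower in stroma in all 20 of 20 members of the cell cycle list, but none passed the test (limma, 0 higher and 7 lower at an unadjusted p under 0.05; adjusted p from 0.0659 to 0.266), with a median of -1.61. Mki67, a marker of cycling cells, was at -3.77, 3.80 and 5.28 (lowest, median, highest) in stroma and at 3.998, 4.50 and 5.31 in tumor. Its difference was -1.41 ± 0.901 (limma adjusted p = 0.266), with 2 of 8 pairs higher in stroma. Top2a, the topoisomerase of replicating cells, was at 3.37, 3.06, 3.67, 3.9997, 1.16, -5.67, 4.68 and 4.82 on stroma 1, 5, 45, 68, 4, 9, 65 and 82, and between 3.48 and 4.78 in tumor. Stroma 9 was far below, and stroma 65 and 82 were above their tumors. The mean level of the list on these stroma arrays was 2.26, 2.40, 3.03, 2.96, 0.73, -4.07, 3.66 and 3.80, and on the tumors of the same numbers 3.78, 3.22, 3.87, 3.46, 3.47, 2.89, 3.55 and 3.17. The count of calls moved with pairs left out after the data were seen. It was 16 of 20 lower without pairs 9, 65 and 82 (median -1.28), 3 without pairs 65 and 82 (median -2.29), and 0 without pair 9 (median -0.79). Pairs 65 and 82 were the 2 with the list higher in stroma (0.11 and 0.63), so leaving them out favours falls. With slide as a block 14 fell, in a fit that rests on 1 stroma array per slide, stroma 9 among them. The list lay at -1.16 within scan day 1, -2.07 within day 2 and from -7.30 to -0.21 within slides, the lowest on the slide that held stroma 9.

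The promoter of Top2a carries the letters that many cell cycle genes share. Since no member was called, this promoter was chosen after its values were seen. Its 250 bases before the start site (chr11:99024190-99024439, minus strand, GRCm38.p6, RefSeq) are printed 5′ to 3′ with CCAAT, the core letters of the NF-Y box, and TTTGAA, the core letters of the CHR element, in capitals on either strand.
Top2a: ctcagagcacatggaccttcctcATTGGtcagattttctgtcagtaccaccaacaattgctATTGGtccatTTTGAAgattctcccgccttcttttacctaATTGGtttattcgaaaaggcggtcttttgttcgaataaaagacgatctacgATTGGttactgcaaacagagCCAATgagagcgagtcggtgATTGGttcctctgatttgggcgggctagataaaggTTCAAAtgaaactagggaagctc
CCAAT begins at -227, -189, -149, -98, -78 and -58 from the start site on 1 strand or the other, and TTTGAA at -179 and -23. Of the 15 list members with a promoter, 14 held CCAAT (93.3%) and 11 held TTTGAA (73.3%), against 37.9% and 18.1% of all promoters. In the muscle list 47.1% held CCAAT and 5.88% held TTTGAA.

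DNA replication genes followed, with 1 of 20 called: Rfc3, a subunit of the clamp loader, fell by 1.35 on the log2 scale (limma adjusted p = 0.0394, and 0.0899 without pair 4). The list median was -1.07, and 10 of 20 fell without pairs 65 and 82 and 8 without pairs 9, 65 and 82. Mcm5, of the replicative helicase, differed by -1.63 (limma adjusted p = 0.115). Of 15 genes of ribosome assembly Ppan alone fell, by 0.88 on the log2 scale, and it was called in 1 of 8 fits that left out 1 pair (highest adjusted p 0.102, without pair 1). All 18 ribosomal protein genes were lower, by a median of -0.45, and 5 fell, with Rps3 at -0.75 ± 0.16 (limma adjusted p = 0.0174, and 0.0533 without pair 45, where none of the 5 was called). That shift depended on scaling: after quantile scaling 17 were lower, the median was -0.20 and 1 fell. The 12 reference genes had a median of -0.45 as well, 0 of them called by limma (0 higher and 6 lower at an unadjusted p under 0.05).

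Several genes of the response to low oxygen fell in stroma. Of 19 tested, 8 fell and 0 rose, 16 were lower and 3 higher, and the median was -0.85, beside 9.62% of all genes called lower. Slc2a1, the glucose carrier GLUT1, was at 1.52, 2.87 and 3.45 (lowest, median, highest) in stroma and at 3.05, 4.36 and 5.71 in tumor. It was lower in stroma in 8 of 8 pairs, by -1.72 ± 0.394 (limma adjusted p = 0.0221, and 0.0547 without pair 4). Car9, a carbonic anhydrase of hypoxic cells, was at -2.09, -1.08 and 0.67 in stroma and at 0.42, 2.07 and 3.34 in tumor, a difference of -2.75 ± 0.453 (limma adjusted p = 0.007). Ankrd37 was at -0.60, 1.03 and 1.65 in stroma and at 1.76, 3.01 and 4.16 in tumor, with no overlap, and differed by -2.28 ± 0.304. Pdk1, pyruvate dehydrogenase kinase 1, fell by 1.14 on the log2 scale. On the same scale the prolyl hydroxylases of collagen P4ha1 and P4ha2 fell by 0.88 and 0.74, and the glycolytic enzymes Pfkp and Pkm by 1.09 and 0.59. Car9, Ankrd37 and Pdk1 were called in all 8 fits that left out 1 pair. Other glycolytic genes stood nearer 0, with Ldha at -0.19, Gapdh at -0.16 and Aldoa at 0.19, and the hexokinase Hk2 was at 1.08 (limma adjusted p = 0.123). Vegfa differed by -0.85 (limma adjusted p = 0.086). Of the 8, 4 stayed called without pair 5 or 4, and without pairs 65 and 82 there were 4 falls and 1 rise. The list lay at -0.32 within scan day 1 and -0.96 within day 2.

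The largest falls were single genes. Cck, a peptide hormone of gut and brain, was at -5.31, -1.15 and 1.60 (lowest, median, highest) in stroma and at 1.24, 2.69 and 5.47 in tumor, and differed by -4.35 ± 0.587 (limma adjusted p = 0.00341) in 8 of 8 pairs. Grem1, a secreted inhibitor of bone morphogenetic proteins, was at -6.92, -1.43 and 1.65 in stroma and at 1.32, 2.52 and 4.37 in tumor. Its difference was -3.96 ± 0.894 (limma adjusted p = 0.0211, and 0.0573 without pair 4). Il11, a cytokine of the interleukin-6 family, differed by -3.10 ± 0.781 (limma adjusted p = 0.0292, and 0.0724 without pair 45). Nrn1, a neurite growth protein, was at -2.14, 0.44 and 2.03 in stroma and at 2.16, 3.09 and 3.84 in tumor, with no overlap, and differed by -2.94 ± 0.436. Rasgrf1, an exchange factor for Ras, differed by -3.86 ± 0.58, the transcript U90926 by -3.35 ± 0.444, Ces1a by -3.04 ± 0.509 and Csn1s2a by -2.97. Cck, Nrn1, Rasgrf1, U90926, Ces1a and Csn1s2a were called in all 8 fits that left out 1 pair. Of the 15 largest falls, chosen by the same filter as the rises, the other 7 were Tnfrsf9, Cxcl3, Hapln1, Fam110c, Wfdc2, Pax9 and Gzme, from -3.43 to -2.86. Their highest limma adjusted p without 1 pair ran from 0.0574 (Hapln1 without pair 5) to 0.102 (Pax9 without pair 4). Pair 9 held the widest fall of all 7, and of Cck, Grem1, Il11 and Nrn1. Rasgrf1, U90926, Ces1a and Csn1s2a fell most in another pair. Tnfrsf9 was at -10.43 in pair 9 and between -3.62 and -0.95 in the others. Grem1 was at -9.73 in pair 9 and between -5.88 and -0.48 in the others.

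Cytokines moved in both directions. Of 20 tested, 2 rose and 4 fell, beside 7.82% of all genes called higher and 9.62% lower. The 2 that rose are chemokines of connective tissue. Cxcl12, the ligand of CXCR4, was at -0.17, 2.38 and 4.45 (lowest, median, highest) in stroma and at -2.65, -1.18 and 1.15 in tumor, a difference of 3.45 ± 0.614 (limma adjusted p = 0.00921). Ccl11, which draws eosinophils, rose by 3.51 ± 0.558 (limma adjusted p = 0.00614). The 4 that fell act on neutrophils or on their production, or in the interleukin-6 family. Csf3, granulocyte colony-stimulating factor, was at -7.43, -6.65 and -4.73 in stroma and at -6.11, -2.93 and 0.62 in tumor, differed by -3.71 ± 0.717 (limma adjusted p = 0.0126), and was well above background on 1 stroma array and 7 tumor arrays. Csf3 thus passed the filter on dim genes mainly through tumor, and with most stroma values at background the size of its difference is not well measured. The neutrophil chemokines Cxcl1 and Cxcl2 differed by -2.70 and -2.74, and Lif by -2.41. Cxcl1, Cxcl2 and Lif lost the call when 1 pair was left out (highest adjusted p 0.0644 without pair 4, 0.0685 without pair 45 and 0.0652 without pair 45), while Cxcl12 and Ccl11 kept it in all 8 fits. Il1b and Il6 differed by -1.16 and -0.52 and were not called, and without pairs 9, 65 and 82 they were at 0.93 and 1.27. The list median turned with the pairs as well, from -0.49 to 0.72 without pairs 9, 65 and 82, and the list was 1.38 higher within scan day 1 and at -1.89 within day 2.

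Growth factors held rises and falls. Of 21 tested, 2 rose and 3 fell, beside 7.82% of all genes called higher and 9.62% lower. Igf1 was at 0.06, 1.90 and 4.93 (lowest, median, highest) in stroma and at -3.29, -1.76 and 0.36 in tumor, and rose by 3.84 ± 0.708 (limma adjusted p = 0.0107). Bmp4 rose by 2.29 (limma adjusted p = 0.0303, and 0.0761 without pair 45). Inhba, the activin A subunit, was at -2.09, 2.13 and 3.54 in stroma and at 2.72, 3.64 and 5.47 in tumor, and differed by -2.13 ± 0.539 (limma adjusted p = 0.0299, and 0.0735 without pair 4). Hgf, the ligand of Met, differed by -2.05 (limma adjusted p = 0.0479, and 0.0887 without pair 45). Its difference was -6.95 in pair 9 and between -1.60 and -0.85 in every other pair, so pair 9 weighs heavily on its size. Fgf7 fell by 1.32 on the log2 scale in 8 of 8 pairs and, like Igf1, was called in all 8 fits. The epidermal growth factor receptor ligands Areg and Ereg differed by -2.68 and -3.00, lower in stroma in 8 of 8 pairs, with adjusted p of 0.0541 and 0.0618 by limma.

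The prostaglandin pathway, to which EP2 belongs, held 3 calls among 17 tested genes of 21, 2 higher and 1 lower, beside 17.4% of all genes called, with a median of -0.04 that turned sign in some settings. Among the enzymes that make prostaglandins, Ptgs2, inducible cyclooxygenase, was at -5.14, 1.31 and 3.76 (lowest, median, highest) in stroma and at 1.40, 2.78 and 5.15 in tumor. It was lower in stroma in 8 of 8 pairs, by -2.56 ± 0.856, and missed the threshold (limma adjusted p = 0.0633). Without pair 9 the difference was -1.68 and was called. Ptgs1, the constitutive form, was at -2.11, -0.36 and 1.96 in stroma and at -3.42, -1.80 and 0.76 in tumor, and differed by 1.39 ± 0.571 (limma adjusted p = 0.107). Pla2g4a, the phospholipase that frees arachidonic acid, differed by -1.34 (limma adjusted p = 0.0737). Ptges, the inducible prostaglandin E synthase, differed by -0.40 on its brightest probe and by -2.28 and -1.98 on its other 2 probes, so its probes differ in size. Hpgd, which inactivates prostaglandin E2, was at -5.40, -2.45 and 0.05 in stroma and at -7.44, -5.52 and -4.42 in tumor. It rose by 3.35 ± 0.625 (limma adjusted p = 0.0112) and was well above background on 7 stroma arrays and 1 tumor array. Hpgd thus passed the filter on dim genes mainly through stroma, and with most tumor values at background the size of its difference is not well measured. Abcc4, an exporter of prostaglandins, rose by 0.69 (limma adjusted p = 0.0328, and 0.076 without pair 5), and the importer Slco2a1 differed by -0.37.

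Of the receptors, Ptgfr, for prostaglandin F2 alpha, was at -2.46, -0.81 and 1.27 (lowest, median, highest) in stroma and at 0.57, 1.51 and 2.31 in tumor, and fell by 2.23 on the log2 scale (SE 0.378; limma adjusted p = 0.00783) in 8 of 8 pairs. Ptger2 itself was at -4.42, -3.62, -4.26, -2.58, -2.98, -4.40, -4.25 and -5.65 on stroma 1, 5, 45, 68, 4, 9, 65 and 82, and at -4.46, -5.03, -6.17, -4.43, -5.51, -4.59, -6.13 and -3.46 on the tumors of the same numbers. Stroma was higher in every pair but 82. It was well above background on 6 stroma and 3 tumor arrays, and differed by 0.95 ± 0.483 (limma adjusted p = 0.172). Ptger4 differed by 0.10, a value that turned sign in some settings. Ptger3 was above background on 5 stroma and 2 tumor arrays and Ptger1 on 2 of each, and neither was tested. The prostacyclin receptor Ptgir differed by -0.65 and was not called.

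Some Hox genes, which carry positional identity in connective tissue cells, fell in stroma. Of 17 tested, 5 fell and 0 rose, beside 9.62% of all genes called lower, and 13 were lower and 4 higher. Their median was -0.51, beside -0.45 for the 12 reference genes. Hoxb4 was at -1.94, 0.27 and 0.88 (lowest, median, highest) in stroma and at 0.98, 1.18 and 1.62 in tumor, with no overlap, and differed by -1.19 ± 0.28 (limma adjusted p = 0.0238, and 0.0589 without pair 4). Hoxa11, Hoxb7 and Hoxc8 fell by 1.38, 1.19 and 0.95 and Hoxd10 by 0.83 on the log2 scale. None of the 5 stayed called without pair 1, 5, 45 or 4, while 10 fell and 1 rose without pairs 9, 65 and 82. Of 14 p53 targets, Phlda3 rose by 2.61 ± 0.382 (limma adjusted p = 0.00458), Ccng1 by 2.21 and Trp53inp1 by 1.38, with 1 of the 3 called without pair 1, 5 or 4, while Cdkn1a and Mdm2 differed by 0.65 and 0.13 and were not called. Of 13 circadian genes Per2 and Tef rose by 1.41 and 1.56, beside 7.82% of all genes called higher, and Dbp differed by 0.50. Neither call held without pair 1, 5, 45, 68 or 4.

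The stroma minus tumor difference was also compared between hosts. Of 27096 genes, 0 were called as different between wild-type and EP2 knockout hosts in a limma interaction fit over 32 arrays (smallest adjusted p = 0.0756). That fit held 1 mean per tissue and genotype, without the title number as a block. In it 6039 genes (22.3%) had an unadjusted p under 0.05, so a lack of difference between hosts is not shown. With array weights 10241 were called, and without pairs 65 and 82 the count was 0. Genes entered this fit if well above background on at least 8 of the 32 arrays, so a list can hold more genes than above. The adipocyte list held 18 genes here and 17 above. The list medians, side by side for wild-type and knockout hosts, were 6.03 and 6.65 for skeletal muscle, 2.94 and 4.74 for adipocytes and -1.61 and -3.62 for the cell cycle list. DNA replication stood at -1.07 and -2.62, with 18 of 20 genes at an unadjusted p under 0.05 for the difference and 0 called. Ckm differed by 7.86 and 7.89, and Ptgs2 by -2.56 and -4.40 (limma adjusted p = 0.329 for the difference between hosts). Between pairs labelled female and male 0 of 23792 genes were called (limma; 258, 1.08%, at an unadjusted p under 0.05). With array weights it was 3 genes and without pairs 65 and 82 it was 23.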

How the data were processed

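Total RNA of each sample was labelled with Cy3 and hybridised to a 1-colour Agilent mouse array of 62976 spots, 59305 of them not controls. The submitters' processing notes name Agilent Feature Extraction 10.7.3.1 as the source of the authors' scanner files. Per the file headers, the processed signal used here is a linear intensity. The authors' deposited table of log2 values was not used, because it is centred within each tissue. From the deposited intensity, spots of a probe were averaged, divided by the array's 75th percentile over 56605 non-control probes and taken to log2. Probes were named through RefSeq accessions (GRCm38.p6): 32989 matched a symbol, and the brightest probe over 32 arrays stood for a gene. Genes well above background on at least 8 of 16 arrays, with at most 2 missing values, were tested (limma 3.58.1, R 4.3.3). A gene could pass this filter mainly through 1 tissue, and the size of its difference is then not well measured. The title number entered as a block because the comparison pairs arrays by it. Its check was mixed: the deviations of same-numbered arrays correlated from -0.04 to 0.40, not all above 0.1, so the numbers are not shown to pair the samples.

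Members and gene lists were chosen with earlier results of these data known, so no list is independent evidence. Named genes were the 15 largest rises and falls among called genes with a symbol, above background throughout the brighter tissue and moving 1 way in at least 7 pairs, up to 4 called members per list and direction by smallest p, and fixed key genes. Other members were named from the list counts after their values were seen. Scanner files held no mean signal, so the normexp alternative used the median signal. Slides and scan days were checked as batches: 2 of 6 slides held stroma only. On simulated data with 23792 genes, 20% of 50 genes changed by a log2 size of 1 were recovered, 66% at 2, 94% at 3 and 96% at 4, with 0 wrong signs and 10 false calls. The simulation changed 50 genes at each size, far fewer than the 4149 called in the data. It drew noise separately for each array and held no outlying array, so its shares do not carry over to these data. Array number limits the precision. Some items are not reported here.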

Additional observations from a re-analysis of the deposited data

Results flagged for a closer look

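In 13 of 177 groups of 8 arrays, 1 array stood far from the others, where chance flags about 1 in 20. Stroma 9 was the array in 6 of them that were low: its cell cycle list level was -4.07, its growth factor list level -0.61, Col3a1 2.29, Mki67 -3.77, Top2a -5.67 and Mmp13 -6.97. Stroma 9 was also high for the respiratory chain list, at 7.75. Stroma 4 stood apart at a ribosome assembly list level of 2.09, with Lum, a collagen-binding proteoglycan, at 5.54 and Ptger1 at -2.54. Tumor 1 was high for the fatty acid oxidation list, at 1.99 and the same array had the highest tumor level of the skeletal muscle list, 4.49. Stroma 68 was high for Krt14, at -4.00, and tumor 68 for Cpa3, at 0.44.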

How the results depend on the processing

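The call count kept within 1.5 times of 4149 under most settings, and direction held for nearly all shared calls (3589 of 3591 with the mean of a gene's probes, every shared call elsewhere). Without the replicate block, that is without the pairing, 3903 genes were called, 3265 of them shared, and the named genes that lost the call included Wfdc2, Gzme, Krt18, Elane, Jchain, Rfc3, Rps3, Rpl8, Rpl18, Rps6, Col11a1 and Hoxb7. With the block as a random term it was 5587. Counts that moved further were 1277 lower genes with quantile scaling, 1220 lower with the 75th percentile of bright probes, 1861 called and 504 lower with no filter, 1015 higher with the filter on all 16 arrays, 8658 called, 2942 higher and 5716 lower with array weights, 6936 called and 4295 lower with slide as a block, 8228 called, 2840 higher and 5388 lower with all 32 arrays, and 2750 called and 993 lower at 2-fold or more. Without pairs 9, 65 and 82 (chosen after seeing the data) 6566 were called and 4012 were lower. Leaving out 1 pair gave 1482 to 5222 called, 989 to 2183 higher and 493 to 3039 lower. The genotype difference gave 10241 calls with array weights, and the sex label difference 3 with array weights and 23 without pairs 65 and 82. Taking the percentile over spots, also chosen after seeing the data, gave 4209.

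Of 137 named genes called, 79 to 130 stayed called with 1 pair left out, 121 with quantile scaling and 88 with no filter, and none changed sign. Genes that were not called and turned sign included Dcn (0.045 with quantile scaling, 0.016 with normexp, 0.073 without pairs 65 and 82), Cd3e (0.16 with array weights, 0.23 without pairs 9, 65 and 82, and -0.24 to 0.16 with 1 pair left out, above 0 without pair 1 or 9), Il6 (0.46 without pairs 65 and 82, 1.27 without 9, 65 and 82, and -1.05 to 0.20 with 1 pair left out, above 0 without pair 82), Ptger4 (-0.16 with slide as a block, and -0.19 to 0.33 with 1 pair left out, below 0 without pair 5 or 4) and, without pairs 9, 65 and 82, S100a8 (0.63), Arg1 (0.19) and Il1b (0.93). With 1 pair left out, Cd68 ran from -0.54 to 0.29, Fap from -0.20 to 0.13, Foxo3 from -0.18 to 0.15 and Lep from -0.16 to 0.03. The cause of these moves was not tested.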

Other observations

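Tissue genes outside the lists' main themes were read for markers of skin and epithelium. Krt18, a keratin of simple epithelia, rose in stroma by 4.01 ± 0.776 (limma adjusted p = 0.0127), higher in 8 of 8 pairs but not called without the block (adjusted p = 0.0511). Of 9 simple epithelium genes only 3 could be tested and Krt8, its usual partner keratin, differed by -2.17 (limma adjusted p = 0.0508). Of 12 keratinocyte genes 5 could be tested, and Perp alone rose, by 2.27, called in 2 of 8 fits that left out 1 pair (highest adjusted p 0.0882, without pair 45). Of 5 red blood cell genes 0 were called by limma (2 higher at an unadjusted p under 0.05), with a median of 1.29.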
